A study of Rattus norvegicus and Sus scrofa and Bos taurus with 188 samples.

Results

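The genes described here are the Hippo kinases LATS1 and LATS2, their upstream scaffolds NF2 and AMOTL2, the co-activators YAP1 and WWTR1 (TAZ), and the TEAD transcription factors TEAD1 to TEAD4, in pig morulae. They were chosen by gene symbol, and all 10 symbols had at least 1 row among the 15877 gene names of the table. The series holds 188 samples of oocytes, embryos, cumulus cells and stem cells, of which the 4 RNA libraries of pig morulae enter here. The labels mark these morulae PG, a mark that sister samples use for parthenogenetic activation, in which an egg is started to divide without sperm and the embryo carries a maternal genome only. No other treatment, genotype or age is given, nor how many embryos a library holds. The RNA was copied by Smart-seq2, which makes full-length cDNA from polyadenylated RNA of few cells. The authors merged the 4 libraries into 1 column of FPKM, a measure that divides fragments by the length of the transcript and by the library's own total. The libraries cannot be set apart, so no value has an SD, an n or a test, no order of genes can be judged against a spread, and the depth is unknown.

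In the Hippo pathway the kinases STK3 and STK4, with the adaptor SAV1, activate LATS1 and LATS2, which with their MOB1 partners phosphorylate YAP1 and WWTR1 and keep them out of the nucleus. When the kinases are inactive, YAP1 and WWTR1 enter the nucleus and bind TEAD factors, which bind DNA but need a co-activator to switch genes on. In the mouse morula, apical polarity holds the pathway off in outer cells, where TEAD4 and its co-activators turn on trophectoderm genes, while NF2 and angiomotins support LATS activity in inner cells. The control acts on protein phosphorylation and location, which RNA levels do not measure. In whole morulae, moreover, fewer cells of a type and less RNA per cell cannot be told apart.

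The libraries carried RNA of oocytes or early embryos. All 13 oocyte and embryo markers stood at 1 FPKM or more, against 48.8% of all genes. They lay between 1.44 FPKM for ZP3 and 194 FPKM for TFAP2C. Oocyte genes such as OOSP2 (179 FPKM) and H1FOO (90.3 FPKM) are among them. The markers therefore cannot tell the embryo's own RNA from RNA left by the egg, which was not tested. Against the same 48.8%, 1 of 13 markers of cumulus cells, the follicle cells around the egg, reached 1 FPKM. This was FST, which encodes follistatin, at 16.9 FPKM. The cumulus markers summed to 19.1 FPKM, the remaining ones lay at 0.835 FPKM or below, and TNFAIP6 and FSHR were listed at 0. CYP19A1 reached 1.06 FPKM with its rows summed.

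By highest row TEAD4 was the highest of the 10 genes, followed by YAP1 and WWTR1 at nearly the same level, and the LATS pair was carried by LATS1. TEAD4 was also first with rows summed, but with rows averaged WWTR1, which has 1 row, stood above it (14.9 against 12.3 FPKM). At least 1 transcript row reached 1 FPKM, the level called expressed here, in 7 of the 10 genes, against a background of 48.8% of all genes. The count was also 7 with rows summed, against 50.6% of all genes, and 4 at a threshold of 5 FPKM, against 28.4%. With rows averaged the count was 6, as TEAD2 fell to 0.641 FPKM, and the share of all genes was not computed. Of the 29 transcript rows of the 10 genes, 15 reached 1 FPKM, against 30.3% of all rows. The median of the 10 genes was 3.60 FPKM, against 0.916 FPKM over all genes and 6.89 FPKM over the expressed ones. AMOTL2, LATS2 and TEAD3 lay below 1 FPKM. All 10 genes reached 1 when the column was scaled to sum to 1000000 (TPM), as did 61.3% of all genes, so the calls of these 3 depend on the scale. None of the 10 was listed at 0, and none lay in the run of 474 rows at the end of the table that are all at 0.

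**Figure D1:**
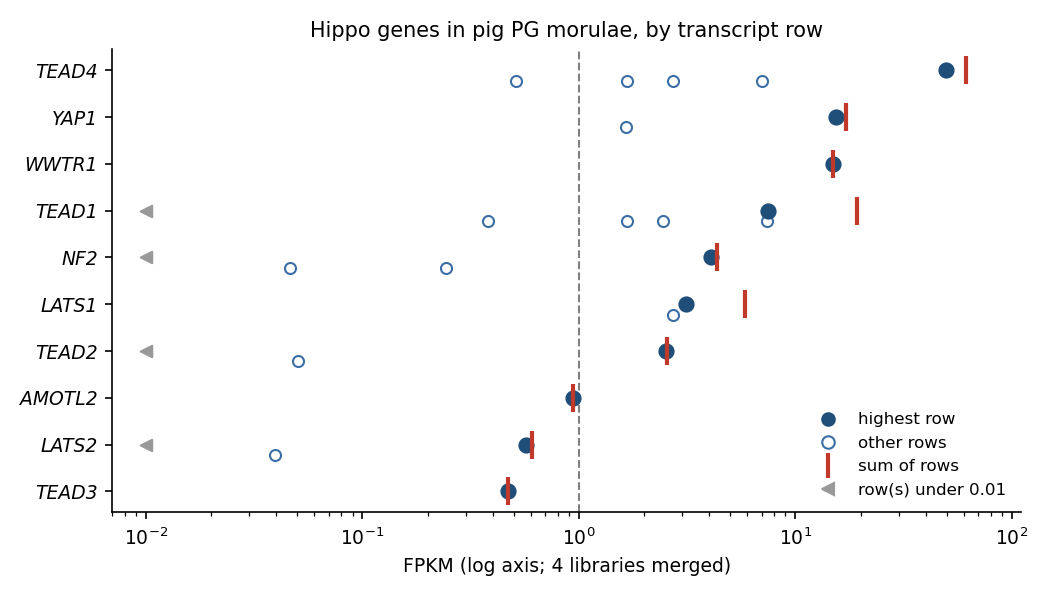
FPKM of every transcript row of the 10 Hippo genes in the merged column of 4 pig PG morula libraries, on a log axis. Filled circles are a gene's highest row, open circles below them its other rows, red bars the sum of its rows, grey triangles 1 or more rows under 0.01 FPKM, and the dashed line is 1 FPKM. TEAD4 stands highest at 49.4 FPKM, and the sum stands far to the right of the highest row for TEAD1 (19.3 against 7.45 FPKM) and LATS1 (5.82 against 3.11 FPKM).

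The co-activators YAP1 and WWTR1 stood close to each other. YAP1, the co-activator that LATS kinases phosphorylate, had 2 rows, ENSSSCT00000063880.1 at 15.5 FPKM and ENSSSCT00000040218.1 at 1.65 FPKM. WWTR1, its paralogue, had 1 row, ENSSSCT00000012814.3, at 14.9 FPKM. By highest row YAP1 was 1.04 times WWTR1, and with rows summed 1.15 times (17.1 against 14.9 FPKM). YAP1 stood above 84.7% of all genes and WWTR1 above 84.3%. With no spread between libraries, a difference of this size cannot be judged, and it turned over when the rows of a gene were averaged. Together the co-activators came to 30.3 FPKM by highest row and 32.0 FPKM with rows summed.

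The TEAD factors, which share a DNA-binding domain and bind the same co-activators, spanned a wide range of levels. TEAD4, the paralogue that mouse embryos need to form trophectoderm, stood at 49.4 FPKM by its highest row, above 93.7% of all genes and at rank 1002 from the top. TEAD1 followed at 7.45 FPKM, TEAD2 at 2.51 FPKM and TEAD3 at 0.471 FPKM. The order was therefore TEAD4, TEAD1, TEAD2, TEAD3, and it was the same with rows summed and with rows averaged.

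TEAD4 made up 82.6% of the TEAD total by highest row and 73.3% with rows summed. TEAD1 made up 12.5% by highest row and 23.1% with rows summed. TEAD2 accounted for 4.20% and TEAD3 for 0.787% by highest row. The TEAD1 share moved the most of the 4 between these summaries, in relative terms. The ratio of TEAD4 to TEAD1 was 6.63 by highest row and fell to 3.17 with rows summed. The ratio to TEAD2 was 19.7 by highest row and 23.9 summed, and that to TEAD3 was 105 and 130.

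The rows of the TEAD genes were divided in different ways. Of the 5 rows of TEAD4, ENSSSCT00000000800.3 held 80.6% of the summed level, and ENSSSCT00000041605.1 came next at 7.03 FPKM. That second row was close to the highest row of TEAD1 and above the whole of TEAD2. The other TEAD4 rows stood at 2.72, 1.67 and 0.510 FPKM.

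TEAD1 had 6 rows and no leading one. ENSSSCT00000054149.1 stood at 7.45 FPKM and ENSSSCT00000014637.3 at 7.42 FPKM, with further rows at 2.44, 1.66 and 0.381 FPKM and 1 row at 3.65e-05 FPKM. The highest row held 38.5% of the TEAD1 sum. Among the 223 expressed genes with 6 rows the median share of the highest row was 61.6%, and 9.42% of them had a lower share than TEAD1. Its sum was 2.60 times its highest row, the largest such ratio among the 10 genes.

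TEAD2 lay at the other end. Its row ENSSSCT00000048413.1 at 2.51 FPKM held 98.0% of the sum, another row stood at 0.0502 FPKM, and its remaining 2 rows were under 1e-06 FPKM. Of the 713 expressed genes with 4 rows, 90.0% had a lower share in their highest row. TEAD3 had 1 row, ENSSSCT00000001722.3, and was the lowest of the 10 genes, above 42.8% of all genes.

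**Figure D2:**
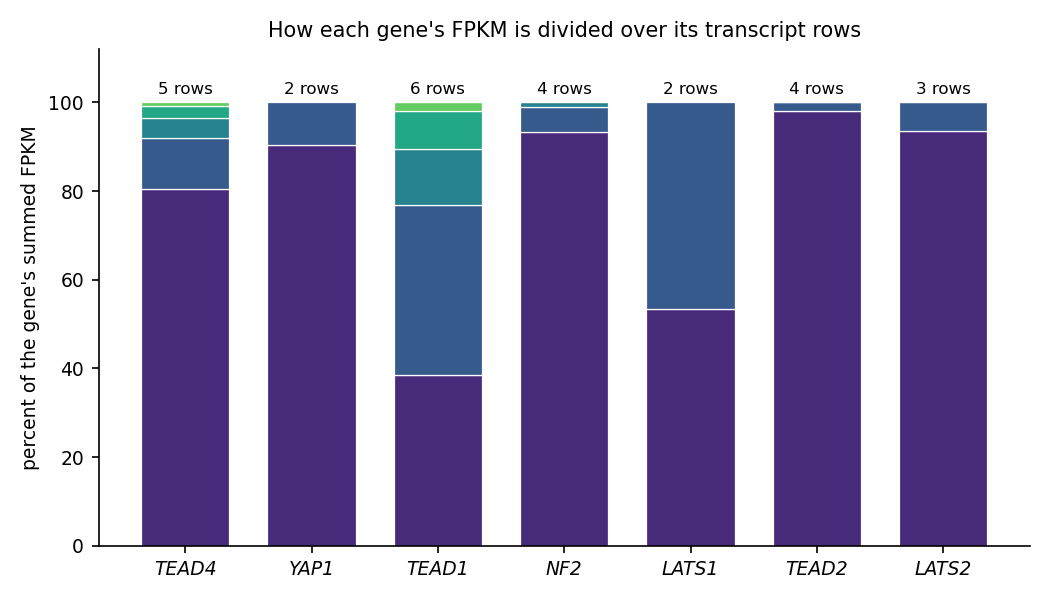
Percent of a gene's summed FPKM in each of its transcript rows, for the 7 Hippo genes with more than 1 row, stacked from the highest row (darkest, at the bottom) upwards. The highest row holds 98.0% for TEAD2 and 93.5% for LATS2, but 53.5% for LATS1 and 38.5% for TEAD1, and rows under 1% of a sum are too thin to see.

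Since TEAD1 was spread over several rows, its place beside the co-activators turned on the summary. By highest row TEAD1 stood at 0.482 of the level of YAP1 and 0.502 of that of WWTR1. With rows summed it stood above both, at 1.13 and 1.30 times their summed levels. TEAD4 was above YAP1 under both summaries, by 3.20 times with the highest row and 3.59 times with the sum. The TEAD genes together exceeded YAP1 and WWTR1 together, with 59.9 against 30.3 FPKM by highest row and 83.7 against 32.0 FPKM summed. The direction turned with rows averaged, at 16.6 against 23.4 FPKM.

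The kinase pair was uneven. LATS1, a kinase that phosphorylates YAP1 and WWTR1, had rows at 3.11 FPKM (ENSSSCT00000004541.3) and 2.71 FPKM (ENSSSCT00000064835.1). LATS2, its paralogue with the same substrates, had its highest row at 0.568 FPKM (ENSSSCT00000055321.1), another at 0.0395 FPKM and a last at 1.79e-07 FPKM. All rows of LATS1 thus lay above 1 FPKM and all rows of LATS2 below it.

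LATS1 was 5.48 times LATS2 by highest row and 9.58 times with rows summed, 5.82 against 0.607 FPKM. On the log2(FPKM + 1) scale, which pulls low values together, the difference was 1.39 by highest row and 2.09 summed. LATS1 divided its level nearly evenly, with 53.5% in its highest row, while the 2067 expressed genes with 2 rows had a median of 94.0%. Of those genes 2.90% had a lower share in their highest row. LATS1 stood above 65.5% of all genes and LATS2 above 44.8%. The co-activator RNA together was 8.23 times the LATS RNA together by highest row and 4.97 times with rows summed.

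The 2 scaffolds upstream of LATS differed as well. NF2, the membrane-linked protein merlin that brings LATS to its activating kinases, had a row at 4.08 FPKM (ENSSSCT00000065472.1), rows at 0.244 and 0.0463 FPKM, and a last at 1.01e-18 FPKM. Its highest row held 93.4% of the sum, and it stood above 68.8% of all genes. NF2 was 1.31 times LATS1 by highest row but 0.750 of it with rows summed, so their order was not settled by this table. AMOTL2, an angiomotin that binds YAP1 and supports LATS activity, had 1 row, ENSSSCT00000012744.3, at 0.943 FPKM. It was just under 1 FPKM and above 50.4% of all genes, which placed it at the middle of the table.

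**Figure D3:**
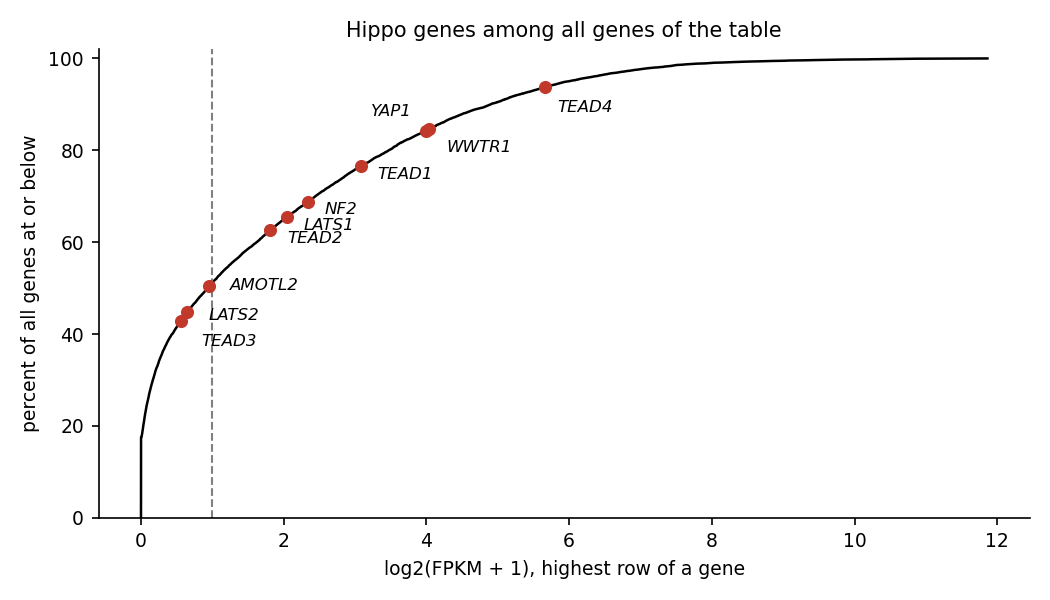
Cumulative curve of log2(FPKM + 1) over the 15877 genes of the table, each at its highest row, with the 10 Hippo genes as red points at the percent of genes below them. The dashed line is 1 FPKM. TEAD4 lies above 93.7% of genes, YAP1 and WWTR1 lie together near 84%, and AMOTL2, LATS2 and TEAD3 lie between 42.8% and 50.4%.

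Related families of the pathway ranged from 1 leading paralogue to nearly even levels, as the plot of paralogue families shows. Among the angiomotins AMOT, which in the mouse embryo is phosphorylated by LATS, stood at 4.17 FPKM and held 79.4% of the family by highest row. It was 4.42 times AMOTL2, and AMOTL1, picked with its value known, had 0.138 FPKM as the highest of 8 rows. In the WWC family, scaffolds that bind LATS, WWC2 stood at 17.7 FPKM and held 96.2%. WWC1 (KIBRA) and WWC3, also picked with their values known, came to 0.199 and 0.504 FPKM. The upstream kinases STK4 and STK3 were closer, at 5.62 and 3.78 FPKM, a ratio of 1.49. In the TAOK family TAOK1 held 56.6% by highest row and 47.1% with rows summed, and in the VGLL family VGLL2 held 60.3% by highest row. The shares in the largest member were 84.6% for the LATS pair, 82.6% for the TEAD family and 51.0% for YAP1 with WWTR1.

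**Figure D4:**
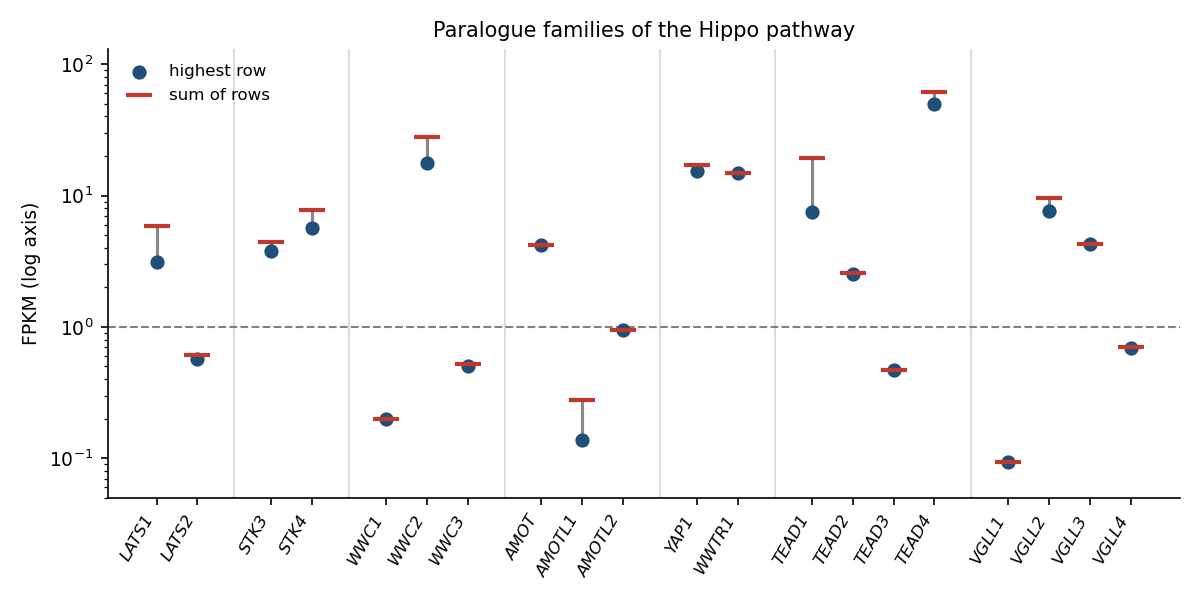
FPKM of the paralogues of 7 Hippo families in the merged column, on a log axis, with filled circles for the highest row, red bars for the sum of rows and the dashed line at 1 FPKM. LATS1, WWC2, AMOT and TEAD4 stand well above their paralogues, and YAP1 and WWTR1 stand level. TEAD1, LATS1 and the low AMOTL1 (0.138 against 0.277 FPKM) have long gaps between highest row and sum.

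The rest of the pathway was read from lists of known components, given as counts beside the background of 48.8% of all genes at 1 FPKM or more. The 4 measured kinase partners were all expressed, with a median of 7.19 FPKM. MOB1A, which binds and activates LATS, stood at 24.4 FPKM, or above both LATS genes, and SAV1 at 8.76 FPKM. The list held 5 genes, of which 1 had no row, and no level of MOB1B is given here. Of 20 upstream activators and scaffolds 11 were expressed (55.0%, median 1.16 FPKM), close to the background. WWC2, RASSF1 at 8.03 FPKM, TAOK1 at 6.78 FPKM and FRMD6 at 5.87 FPKM were the highest, and TAOK2 (0.969 FPKM, 1.72 FPKM summed), CRB3 (0.809 FPKM) and PTPN14 (0.528 FPKM) the highest below 1 FPKM. MARK3 of this list was listed at 0 within the run of zeros at the end of the table.

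Parts that hold Hippo signalling back or act on YAP1 were mostly expressed, against 48.8% of all genes, except the LIM proteins (33.3%). Of 10 measured subunits of STRIPAK, a phosphatase complex that dephosphorylates STK3 and STK4, 9 stood at 1 FPKM or more, with a median of 6.42 FPKM. The general phosphatase subunits PPP2CA (175 FPKM) and PPP2R1A (41.4 FPKM) were the highest, followed by FGFR1OP2 (17.0 FPKM) and STRN3 (11.3 FPKM), while STRIP2 was at 0.448 FPKM. All 6 measured genes for 14-3-3 proteins, which retain phosphorylated YAP1 in the cytoplasm, and for its degradation were expressed. That list held 10 genes, of which 4 had no row, and the STRIPAK list held 11, of which 1 had none. YWHAQ stood at 139 FPKM, YWHAB at 93.0 FPKM, YWHAH at 40.4 FPKM and the ubiquitin ligase gene BTRC at 16.3 FPKM. Of 3 genes for LIM proteins that bind LATS, 1 was expressed, with LIMD1 at 1.495 FPKM, AJUBA at 0.157 FPKM and WTIP listed at 0.

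VGLL proteins compete with YAP1 and WWTR1 for TEAD, and 2 of 4 genes were expressed (50%), close to the background of 48.8%. VGLL2 stood at 7.69 FPKM, nearly the highest row of TEAD1, and VGLL3 at 4.28 FPKM. VGLL4 stood at 0.686 FPKM and VGLL1 at 0.0932 FPKM. All of them lay below YAP1 and WWTR1.

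Of 15 measured genes known as YAP1 and TEAD targets in other cells, 6 (40.0%) were at 1 FPKM or more, against the background of 48.8%, with a median of 0.603 FPKM. On the TPM scale 11 (73.3%) reached 1, against 61.3% of all genes, so the list lay on either side of the background depending on the scale. CTGF (CCN2) was the highest at 72.0 FPKM, 118 FPKM with its 3 rows summed, and so above TEAD4. BIRC5, a cell division gene as well as a target, stood at 25.8 FPKM, ASAP1 at 10.7 FPKM and F3 at 7.42 FPKM. DOCK5 (0.742 FPKM), CRIM1 (0.603 FPKM) and PTPN14 were the highest below 1 FPKM. PTPN14 and AMOTL1 are counted in this list and among the upstream activators and scaffolds. CYR61 (CCN1) stood at 4.26 FPKM and ANKRD1 at 0.0650 FPKM, both picked with their values known.

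Genes of the outer cells of the mouse embryo were mixed, and their dependence on TEAD4 was not tested. Of 8 measured, 5 were expressed (62.5%), with a median of 3.51 FPKM. TFAP2C, which is also counted among the oocyte and embryo markers, stood at 194 FPKM. KRT18 stood at 21.5 FPKM, KRT8 at 6.02 FPKM and ELF5 at 3.86 FPKM. CDX2, a trophectoderm regulator, stood at 0.121 FPKM, below EOMES (0.455 FPKM) and HAND1 (0.275 FPKM), while TEAD4 was at 49.4 FPKM. All 6 measured inner-cell genes were expressed, with a median of 10.4 FPKM and the lowest at 1.35 FPKM, and 1 more listed gene had no row. The highest were KLF17 at 85.9 FPKM, SALL4 at 30.9 FPKM, ESRRB at 15.0 FPKM and PRDM14 at 5.70 FPKM. KLF17 and SALL4 are also counted among the oocyte and embryo markers, which cannot tell the embryo's own RNA from RNA left by the egg. Of 12 measured genes of polarity, adhesion and contractility, which act upstream of Hippo, 11 were expressed, with a median of 6.05 FPKM. A further gene of that list had no row. RHOA (175 FPKM), PARD6B (88.6 FPKM), EZR (50.2 FPKM) and CDH1 (45.2 FPKM) led them, and PRKCZ was at 0.318 FPKM.

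**Figure D5:**
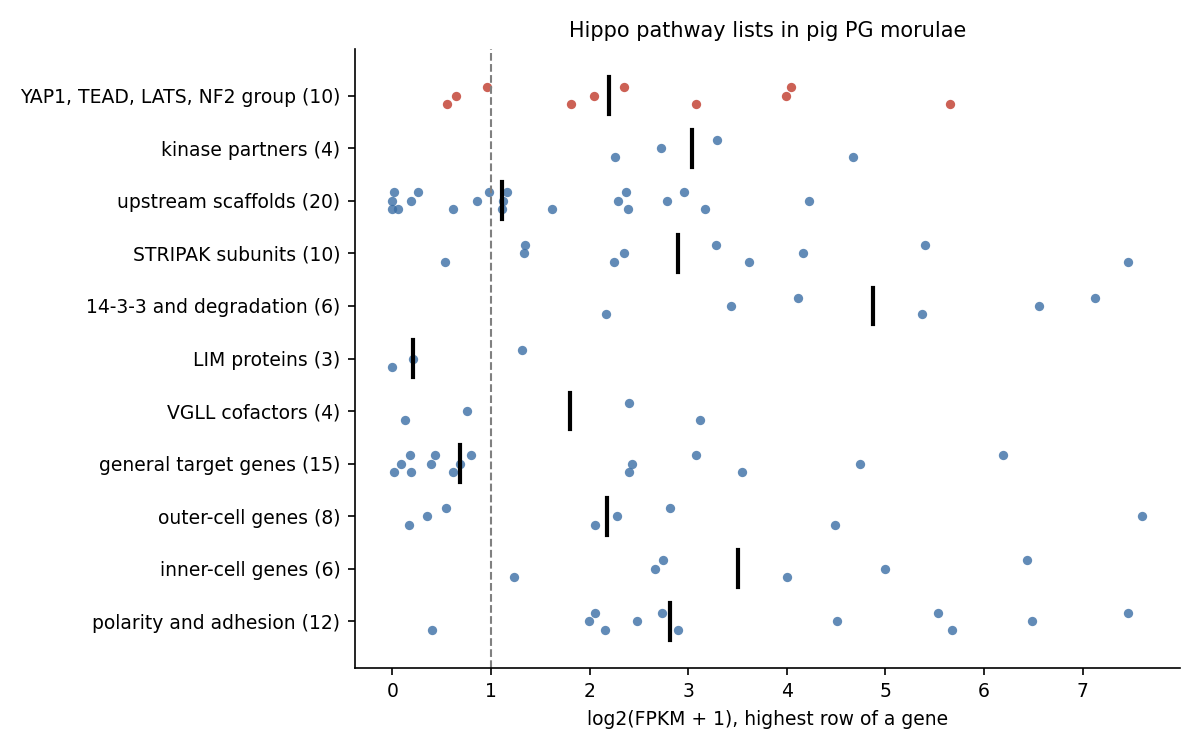
Levels of the Hippo pathway genes by list, as log2(FPKM + 1) of the highest row, 1 point per gene, with the number of genes measured in brackets and a black bar at the list's median. The dashed line is 1 FPKM, and the 10 genes of the YAP1, TEAD, LATS and NF2 group are red. The general target genes and the LIM proteins have medians below 1 FPKM, at 0.603 and 0.157 FPKM, while the 14-3-3 and degradation genes have the highest, at 28.3 FPKM.

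No pattern over samples could be compared, so genes near the Hippo genes are named by level alone, as the 2 nearest on the log2(FPKM + 1) scale among the pathway lists. TEAD4 lay next to EZR and CDH1, and YAP1 and WWTR1 both next to ESRRB and BTRC. TEAD1 lay next to F3 and VGLL2, and TEAD2 next to PARD3 and FAT1. NF2 lay next to STRN and AMOT, and LATS1 next to MYH9 (3.14 FPKM) and GATA3 (3.16 FPKM). Among the low genes, AMOTL2 lay next to TAOK2 and CRB3, LATS2 next to CRIM1 and PTPN14, and TEAD3 next to EOMES and STRIP2.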

How the data were processed

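The authors deposited FPKM values, per the file headers, with 1 row per Ensembl transcript (37571 rows, summing to 304889 FPKM) and 1 column that merges the 4 libraries. No source used here says whether reads or FPKM values were merged. Per the submitters' processing notes the tools include TopHat2 2.1.1, Cufflinks 2.2.1 and the builds include susScr11, with no role stated. In all, 4534 rows lay above 0 and under 1e-06 FPKM, so the division of fragments over transcripts looks fitted, no whole reads could be recovered, and depth is unknown. Each gene was given the value of its highest row, with the sum and mean of rows as alternatives. Expressed means 1 FPKM or more, and log2 values used a pseudocount of 1. Summaries were made with Python 3.11.15 and pandas 2.3.3, and checked on simulated data. Each pathway list names up to 4 of its highest genes and up to 3 highest below 1 FPKM. The genes and lists were chosen with earlier results of these data known. No test was possible on 1 column. No pig sequence was used here.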

Additional observations from a re-analysis of the deposited data

How the results depend on the processing

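With rows averaged, YAP1 stood at 8.55, TEAD1 at 3.22, TEAD2 at 0.641, TEAD4 at 12.3, LATS2 at 0.202 and NF2 at 1.09 FPKM, since low rows pull a mean down. This turned the log2 ratio of YAP1 over WWTR1, 0.05 as reported, to -0.73. With rows summed, TEAD1 came to 19.3 and LATS1 to 5.82 FPKM. The log2 ratio of TEAD4 over TEAD1 was 2.58 as reported, 1.62 with rows summed and 1.65 with rows averaged. That of TEAD4 over TEAD2 was 3.02 averaged. That of TEAD4 over TEAD3 was 5.10 as reported, 3.17 averaged, 6.44 with a pseudocount of 0.1, 6.71 with none and 6.0 on the TPM scale. That of LATS1 over LATS2 was 1.39 as reported, 2.09 summed, 2.27 with a pseudocount of 0.1 and 2.46 with none. Ratios added after seeing the data reversed with rows summed: TEAD1 over YAP1 from -0.96 to 0.17, TEAD1 over WWTR1 from -0.91 to 0.36 (-1.91 averaged) and NF2 over LATS1 from 0.30 to -0.35. With rows averaged, 2 more ratios added in this way reversed, that of TEAD4 over WWTR1 from 1.67 to -0.26 and that of YAP1 with WWTR1 over all TEAD genes from -0.96 to 0.47.

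Scaling to TPM multiplies every value by 3.28. It gave 162 TPM for TEAD4, 50.7 for YAP1, 48.7 for WWTR1, 24.5 for TEAD1, 13.4 for NF2, 10.2 for LATS1, 8.24 for TEAD2, 3.09 for AMOTL2, 1.86 for LATS2 and 1.55 for TEAD3, and 11 target genes at 1 TPM or more. At a threshold of 5 FPKM, 4 of the 10 Hippo genes were left, against 28.4% of all genes. The lists kept 4 of 20 scaffolds, 5 of 10 STRIPAK subunits, 0 of 3 LIM proteins and 1 of 4 VGLL genes. They also kept 3 of 8 outer-cell genes, 7 of 12 polarity genes and 4 of 15 target genes. Of the kinase partners 3 of 4 were left, of the 14-3-3 and degradation genes 5 of 6, and of the inner-cell genes 5 of 6. No paired analysis was possible because the 4 libraries share 1 merged column, and for the same reason no library could be left out.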

Other observations

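The NDR kinases STK38 and STK38L are close relatives of LATS1 and LATS2 that also work with MOB1 proteins, and were looked up after the other values were seen. STK38 stood at 19.3 FPKM and STK38L at 4.32 FPKM by highest row, or 19.6 and 6.07 FPKM with rows summed. Both were above LATS1 under these 2 summaries, STK38L narrowly so with rows summed (6.07 against 5.82 FPKM). Averaged rows were not compared for them. As in the LATS pair, the level was uneven, with STK38 at 4.47 times STK38L by highest row and 3.23 times with rows summed. The ratio fell with the sum, while that of LATS1 to LATS2 rose from 5.48 to 9.58.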
